A study of Mus musculus with 6 samples.

Results

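The transforming growth factor beta (TGF-beta) and bone morphogenetic protein (BMP) signalling genes were chosen by gene symbol. They comprise the TGF-beta, BMP and growth and differentiation factor (Gdf) ligands, the activin and inhibin subunits, the latent TGF-beta binding proteins, the receptors, the SMADs, the SMURF ubiquitin ligases, the secreted antagonists Nog, Grem1, Fst, Fstl1 and Chrd, the pseudoreceptor Bambi, the co-receptor Eng and the target genes Id1 to Id4. There were 52 such genes with 82 transcripts among the 11815 genes and 23115 transcripts of the deposited table. The same symbols match 67 protein-coding genes of the mouse annotation (GENCODE M21). Of these, 15, Bmp4, Acvr2b and Bmpr1b included, had no row among the 11815 genes and so could not be analysed here. Tgfbi, Tgfb1i1, Tgfbrap1 and Bmp2k match by symbol and encode neither a ligand, a receptor nor a SMAD.

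Ligands of the TGF-beta family are secreted as dimers and bind pairs of type I and type II receptor kinases at the cell surface. TGF-beta and activin receptors phosphorylate SMAD2 and SMAD3, BMP receptors phosphorylate SMAD1, SMAD5 and SMAD9, and either group enters the nucleus with SMAD4, where the Id genes are among the best known BMP targets. In bone, matrix stores latent TGF-beta that is released on resorption, BMPs drive osteoblast formation, and activin A, made of the subunit that Inhba encodes, acts on osteoclasts and osteoblasts.

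RNA was sequenced in bulk from osteal macrophages (Omacs), the macrophages that line bone surfaces, of female BALB/c mice. The OVX group had bilateral ovariectomy, which removes the ovarian source of estrogen, at 10 weeks of age under ketamine and xylazine anesthesia. The sham group had sham surgery. Neither group is described as carrying a transgene or receiving a treatment compound. Cells were digested out of femurs and vertebrae 4 weeks after surgery and sorted on CD11b together with F4/80 or CD68, and 3 OVX and 3 sham libraries were analysed. The study collected bones from 20 mice per condition and the labels do not say which mice went into which library, so a library may be a pool and p-values measure only the spread between libraries, which may be technical.

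Values are TPM, which give each transcript as a length-corrected share of all RNA in its library. They were summed over the listed transcripts of a gene and scaled between libraries (scaled TPM). Levels can be set side by side between genes only as far as their transcripts are listed, and 17 of the 52 pathway genes have all annotated transcripts listed. The listed transcripts held 66.31% of the TPM scale in OVX replicate 3 and 80.53% to 82.97% in the other libraries. OVX replicate 3 stood apart: its log2 values correlated with those of OVX replicates 1 and 2 at r = 0.944 and 0.9495 across genes, against 0.98 between the other OVX pair and 0.980 to 0.982 among sham libraries. It was the lowest or highest of the 6 libraries for 65.7% of all tested genes and for 28 of the 41 tested pathway genes, so values without it are given beside the fold changes that it moved by a large part. Of the sort markers, Cd68 was at 36.35 to 43.08 scaled TPM in OVX and 32.4 to 37.92 in sham, Itgam (CD11b) at 18.53 to 28.23 in OVX and 10.78 to 13.64 in sham, and Adgre1 (F4/80) at 0.467 to 1.05 in OVX and 0.640 to 1.16 in sham. Csf1r, the macrophage growth factor receptor, was listed at 0 in every library, and an exact 0 in such a table can be a failed estimate.

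Transcripts of other cells were abundant, and their part in the results below was not tested. The 9 listed of 14 neutrophil markers summed to 132000 to 141600 scaled TPM in OVX and 69680 to 89310 in sham. S100a8, at 56350 to 74240 in OVX and 29900 to 39300 in sham, and S100a9, at 54280 to 75590 in OVX and 36110 to 46290 in sham, made up most of that sum, and 4 of the 8 tested neutrophil markers separated the groups (S100a8, S100a9, Ngp and Mmp8, all higher in OVX, or 50%, where 7.42% of all genes were higher without overlap). The 14 stromal and fibroblast markers summed to 11130 to 18810 in OVX and 17650 to 18290 in sham, with the lowest value in OVX replicate 3. The 12 listed of 20 macrophage markers summed to 1764 to 2424 in OVX and 1787 to 1882 in sham, and of 9 tested, 3 were higher (Fcgr3, Itgam and Lgals3, or 33.3%) and 1 was lower (Vcam1) without overlap. The 15 chondrocyte markers summed to 971.2 to 1383 in OVX and 1355 to 1512 in sham, most of it Comp and Chad. The single markers mostly went the other way. Of 13 tested, 9 were higher and 2 (Comp and Chad) lower without overlap (69.2% and 15.4%, against 7.42% and 7.8% of all genes). The sums of 5 other lists were lower in every OVX library than in any sham library, 1 of them the endothelial list, of which only Plvap was listed. The 7 listed of 14 osteoblast and osteocyte markers summed to 4461 to 5359 in OVX and 6460 to 6470 in sham, nearly all of it Spp1. The single markers mostly went the other way: of 5 tested, 4 had positive log2 fold changes (OVX minus sham) and only Spp1 a negative one. Runx2 was higher and Spp1 lower without overlap (20% each, against 7.42% and 7.8% of all genes). The 10 listed muscle markers summed to 141.5 to 174.1 in OVX and 221 to 237.7 in sham. All 8 tested had negative log2 fold changes, and 4 were lower and 0 higher without overlap (50% lower, against 7.8% of all genes). The 2 listed megakaryocyte and platelet markers summed to 402.3 to 421.1 in OVX and 453.3 to 561.8 in sham. The last of these lists, the 13 mitochondrially encoded genes, marks no cell type. These genes summed to 53840 to 69230 in OVX and 74860 to 82240 in sham, and 8 of them were lower without overlap (61.5%, against 7.8% of all genes). No lymphocyte marker of the list was in the table.

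No TGF-beta or BMP signalling gene was called different between OVX and sham. Of the 52 genes, 41 had a mean of at least 1 scaled TPM and were tested, and none reached an adjusted p under 0.05 in limma, the lowest being 0.568 for Id3, while 0.0122% of all 8184 genes tested were called. At an unadjusted p under 0.05, 2 genes were higher in OVX (Tgfb2 and Bmp7; 3.46% of all genes tested) and 3 were lower (Id3, Fstl1 and Ltbp4; 3.42% of all genes), where 6.88% of all genes were under that level in either direction. The OVX and sham libraries did not overlap for 11 of the 41 genes, or 26.8%, against 15.2% of all genes tested. In 3 of them every OVX library was above every sham library (Tgfb2, Bmp7 and Bmp5), where the share of all genes was 7.42%, and in 8 it was below (Id3, Fstl1, Ltbp4, Eng, Gdf5, Inhbb, Bambi and Smad6), where it was 7.8%. On the TPM as deposited, 1 gene (Tgfb2) was above and 8 were below without overlap, with Ltbp2 in place of Bambi among those below, or 22% of the tested pathway genes, against 16.6% of all genes, and all genes leaned lower on that scale (127 higher and 496 lower at an unadjusted p under 0.05).

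The log2 fold changes, OVX minus sham, were taken on log2 of the scaled TPM plus 1, which makes changes of low genes look smaller, and ran between -0.74 for Smurf1 and 0.56 for Tgfb2. Their median was -0.044, against -0.013 for all genes tested, with 19 positive and 22 negative. A log2 fold change of over 0.5 in size was found for 7 of the 41 genes, or 17.1%, against 11.8% of all genes tested. On the TPM as deposited the median of all genes was -0.15 and the pathway genes split into 11 positive and 30 negative, so the direction of small differences depends on the scaling. Without OVX replicate 3, again none of the 40 genes then tested was called (0.121% of all genes were). 7 of them had an unadjusted p under 0.05 (9.37% of all genes), and 14 had groups that did not overlap, or 35%, against 26.4% of all genes.

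**Figure D1:**
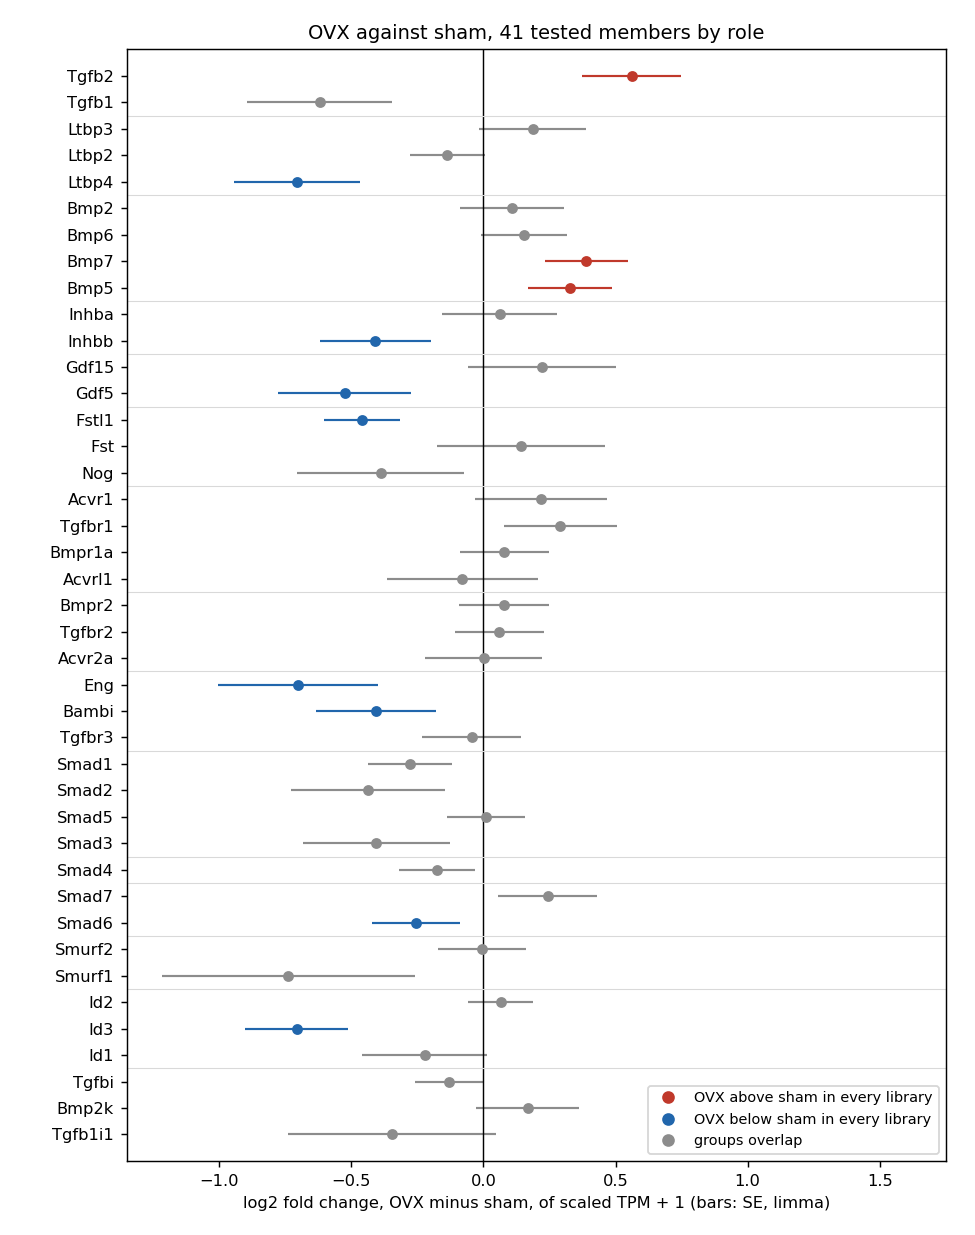
Log2 fold change of each of the 41 tested genes (horizontal axis, OVX minus sham, log2 of scaled TPM + 1), grouped by role, with the limma standard error as a bar. Red marks the 3 genes whose OVX libraries all lay above the sham libraries and blue the 8 whose OVX libraries all lay below, on the scaled values.

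Levels spanned more than the differences did. Inhba ranked 51 of 11815 genes by mean level and made up 66.6%, 66.5% and 58.0% of the summed level of the 52 genes in OVX replicates 1, 2 and 3, against 60.7%, 59.5% and 62.3% in sham replicates 1, 2 and 3. The Id genes held a further 17.3% to 20.1% in OVX and 21.3% to 23.3% in sham. A mean of at least 10 scaled TPM was reached by 12 genes, and 23 of the 41 tested genes averaged between 1 and 5. Below the level for testing were Id4, Tgfb3, Tgfbrap1, Ltbp1, Acvr1b, Grem1, Gdf10 and Bmp3, and Chrd, Inhbe and Smad9 were listed at 0 in every library. Of these, Gdf10 was at 0.220, 0.0696 and 0.297 scaled TPM in OVX libraries, against 0, 0 and 0.0614 in sham libraries.

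**Figure D2:**
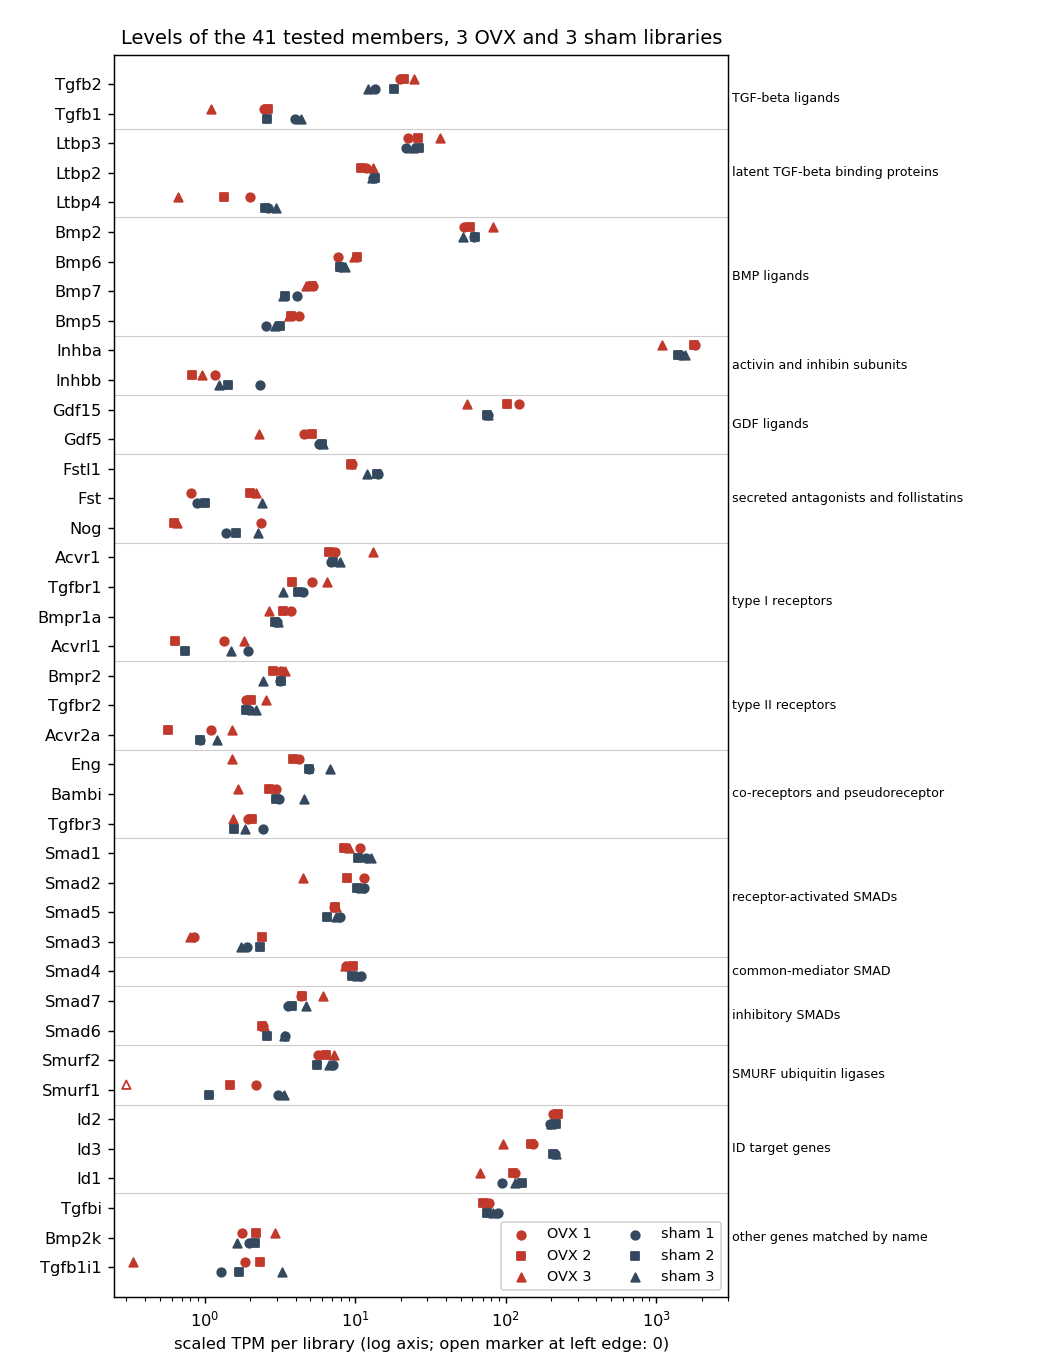
Scaled TPM (log axis) of the 41 tested genes in each OVX library (red, upper row of each gene) and each sham library (blue, lower row), grouped by role. Inhba lies at 1089 scaled TPM or more in all 6 libraries, no receptor or SMAD exceeds 13.11, and OVX replicate 3 (red triangle) is often the outermost point.

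Among the 3 TGF-beta ligands, Tgfb2 was the most abundant, and its levels were 19.69, 21.16 and 24.61 scaled TPM in OVX libraries, against 13.52, 18.19 and 12.13 in sham libraries. Every OVX library was above every sham library, and the log2 fold change was 0.56 ± 0.19 (SE; unadjusted p = 0.0196, adjusted p = 0.673, limma). Without OVX replicate 3 it was 0.48. Unlike the other isoforms, TGF-beta 2 binds the type II receptor weakly unless betaglycan presents it. Its longer listed transcript, ENSMUST00000045288, was at 19.687, 19.246 and 19.076 in OVX and 12.26, 15.27 and 12.125 in sham, and the shorter one, ENSMUST00000195201, varied between 0 and 5.539 without separating the groups. An annotated antisense gene, Gm29491, overlaps Tgfb2. The study's methods name a directional library kit, which keeps strand, but the sources used here do not say whether counting used strand.

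Tgfb1, the isoform best known in bone matrix and immune cells, was at 2.465, 2.624 and 1.093 scaled TPM in OVX libraries, against 3.984, 2.595 and 4.322 in sham libraries. OVX replicate 2 lay just above sham replicate 2, so the groups overlapped (log2 fold change -0.62 ± 0.27, adjusted p = 0.706). Without OVX replicate 3 the value was -0.37. Only 1 of its 5 annotated transcripts is listed, so this level can miss part of its RNA, as for most genes here: 17 of the 52 have all annotated transcripts listed. Tgfb3 was at 0.862, 0.696 and 0.915 in OVX and 0.460, 0.644 and 0.815 in sham. The ratio of Tgfb2 to Tgfb1 within a library, which does not depend on the scaling, was 7.99, 8.06 and 22.5 in OVX and 3.39, 7.01 and 2.81 in sham. These do not overlap, and the pair was chosen after the values were seen.

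The 250 bases upstream of the Tgfb2 start were read because it had the largest positive fold change. The window is chr1:186705990-186706239 on GRCm38.p6, minus strand, from RefSeq, and capitals mark CAGAC or its reverse complement GTCTG, the short core of SMAD binding elements.
Tgfb2: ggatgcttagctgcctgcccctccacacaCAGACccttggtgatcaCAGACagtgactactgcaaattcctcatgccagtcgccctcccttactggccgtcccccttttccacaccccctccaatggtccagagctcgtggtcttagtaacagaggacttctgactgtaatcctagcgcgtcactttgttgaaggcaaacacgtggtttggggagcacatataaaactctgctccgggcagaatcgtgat
It held 2 matches. So short a motif is common: 42.19% of all 32851 promoter windows of 250 bases hold it on either strand, and so did 22 of the 45 windows (48.9%) found for 37 of the pathway genes. The GC-rich motif GGCGCC, also read by SMADs, was in 15 of the 45 windows (33.3%) and in 9.59% of all windows. Some genes had several windows, and overlapping windows of Ltbp4 both held GGCGCC. The GC content of the windows was not compared, so these shares are not read as an enrichment. The palindrome GTCTAGAC was in 0 of the 45 and in 0.17% of all. Neither GGCGCC nor GTCTAGAC contains CAGAC or GTCTG, though matches of different motifs can share bases. A match is a run of letters, not a site shown to be bound.

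TGF-beta is secreted bound to its propeptide and held in the matrix by latent TGF-beta binding proteins. Ltbp4, which encodes 1 of them, was at 1.984, 1.332 and 0.666 scaled TPM in OVX libraries, against 2.624, 2.515 and 2.946 in sham libraries. All OVX libraries were below all sham libraries (log2 fold change -0.71 ± 0.24, adjusted p = 0.673), and without OVX replicate 3 the value was -0.49. Only 1 of its 10 annotated transcripts is listed. Ltbp3 was more abundant at 22.23, 26.07 and 36.41 in OVX libraries, against 21.82, 26.66 and 24.29 in sham libraries, which overlapped (0.19 ± 0.20), and the value was -0.0061 without OVX replicate 3. Between 91.7% and 98.2% of the Ltbp3 level in each library came from ENSMUST00000235336, which is annotated as a retained intron and not as coding. Ltbp2, a related matrix protein, was at 11.77, 10.86 and 13.07 in OVX and 13.05, 13.57 and 12.84 in sham, and Ltbp1 was below the level for testing. The ratio of Ltbp4 to Ltbp3, another pair chosen after the values were seen, was 0.0892, 0.0511 and 0.0183 in OVX and 0.12, 0.0943 and 0.121 in sham, with OVX replicate 1 just under sham replicate 2.

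All 4 tested BMP ligands had positive log2 fold changes on the scaled values, though Bmp2 did not on the TPM as deposited (-0.052), and 2 of them separated the groups. Bmp7, an osteogenic BMP also made outside bone, was at 5.21, 5.14 and 4.707 scaled TPM in OVX libraries, against 4.08, 3.42 and 3.305 in sham libraries (0.39 ± 0.16, adjusted p = 0.701). Bmp5, which is needed for normal skeletal shape in mice, was at 4.188, 3.718 and 3.637 in OVX libraries, against 2.538, 3.139 and 2.911 in sham libraries (0.33 ± 0.16, adjusted p = 0.715). In either gene the scaled levels of the OVX libraries lay close together and above all sham libraries, also without OVX replicate 3. The separation was lost on the TPM as deposited. There Bmp7 was at 5.2, 5.17 and 3.96 in OVX libraries, against 4.26, 3.4 and 3.77 in sham libraries (0.26 ± 0.18), and Bmp5 was at 4.18, 3.74 and 3.06 in OVX libraries, against 2.65, 3.12 and 3.32 in sham libraries (0.21 ± 0.18). Chondrocytes make BMP ligands too. Of 13 tested chondrocyte markers, 9 had all OVX libraries above all sham libraries and 2 (Comp and Chad) had them below (7.42% and 7.8% of all genes). The summed level, most of it Comp and Chad, overlapped. The part of chondrocytes in the BMP values was not tested.

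Bmp2, the most abundant BMP ligand and a strong inducer of osteoblasts, was at 52.38, 57.97 and 82.52 scaled TPM in OVX libraries, against 61.82, 62.16 and 51.95 in sham libraries. The groups overlapped, with OVX replicate 3 far above the rest (0.11 ± 0.20), and without that library the log2 fold change was -0.084. Bmp6, known for its role in iron regulation in liver, was at 7.654, 10.32 and 9.77 in OVX and 7.959, 7.947 and 8.557 in sham, which overlapped too. Bmp3 was near 0 in every library.

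Inhba, at chromosome 13, 16011851 to 16031621 on the plus strand (GRCm38), encodes the beta A subunit of activins and inhibins. It was at 1813, 1787 and 1089 scaled TPM in OVX libraries, against 1428, 1399 and 1552 in sham libraries. OVX replicates 1 and 2 lay above all sham libraries and OVX replicate 3 below them, so the log2 fold change of 0.062 ± 0.22 (adjusted p = 0.936) averages libraries that differed in direction. It was 0.30 ± 0.080 without OVX replicate 3 (adjusted p = 0.313, with 0.313 to 0.983 over all alternatives), -0.064 without OVX replicate 1, -0.049 without OVX replicate 2 and -0.100 on the TPM as deposited.

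The listed transcripts of Inhba showed where OVX replicate 3 differed. The short transcript ENSMUST00000164993, of 1529 bases, was at 1592.006, 1565.519 and 763.537 scaled TPM in OVX libraries, against 1233.244, 1192.272 and 1383.556 in sham libraries. The long one, ENSMUST00000042603, of 6390 bases, was at 221.318, 221.738 and 325.461 in OVX libraries, against 194.856, 206.443 and 168.437 in sham libraries. The long transcript was therefore higher in every OVX library than in any sham library, while the short one was lowest in OVX replicate 3. The short transcript held 87.8%, 87.6% and 70.1% of the gene's level in OVX and 86.4%, 85.2% and 89.1% in sham. The sources used here do not give how TPM were divided between overlapping transcripts. Inhbb, for the beta B subunit, was far less abundant, at 1.172, 0.815 and 0.963 in OVX libraries, against 2.337, 1.418 and 1.245 in sham libraries, without overlap (-0.41 ± 0.21, adjusted p = 0.718), and the value was -0.24 without sham replicate 1.

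**Figure D3:**
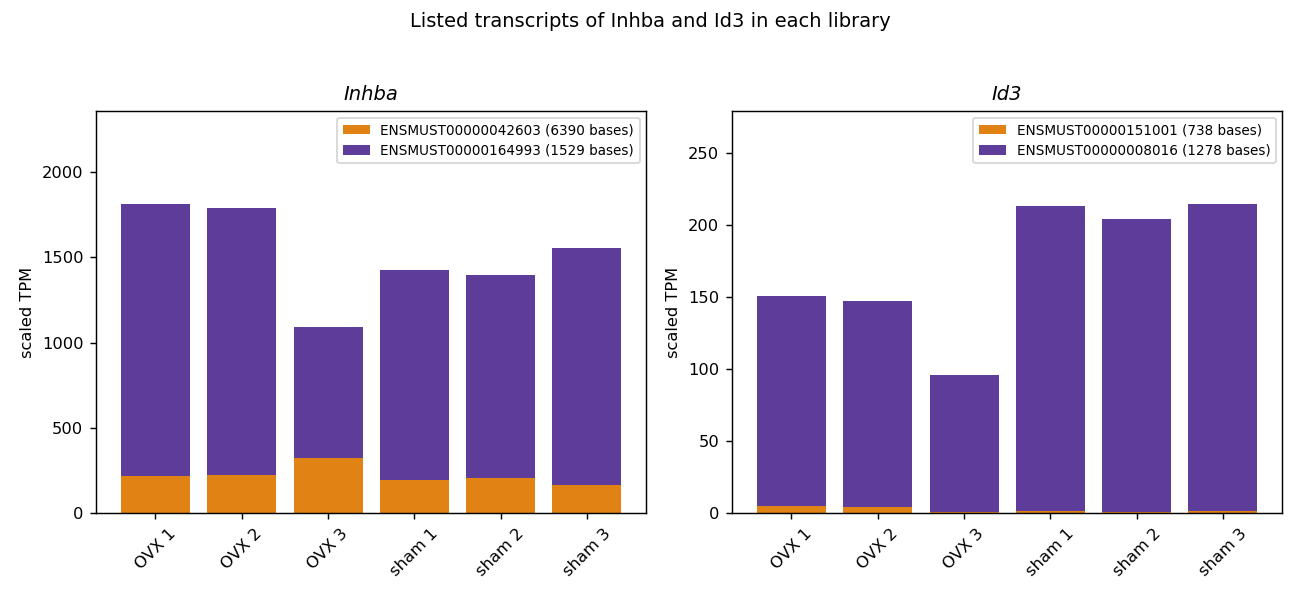
Scaled TPM of the listed transcripts of Inhba (left) and Id3 (right), stacked, in each OVX and sham library. The short Inhba transcript (purple) drops to 763.537 in OVX replicate 3 while the long one (orange) reaches 325.461 there, and nearly all of Id3 comes from ENSMUST00000008016.

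The window upstream of Inhba is shown as that of the most abundant gene of the pathway and in contrast to Tgfb2. It is chr13:16011601-16011850, plus strand, GRCm38.p6, from RefSeq, and none of the 3 motifs was in it.
Inhba: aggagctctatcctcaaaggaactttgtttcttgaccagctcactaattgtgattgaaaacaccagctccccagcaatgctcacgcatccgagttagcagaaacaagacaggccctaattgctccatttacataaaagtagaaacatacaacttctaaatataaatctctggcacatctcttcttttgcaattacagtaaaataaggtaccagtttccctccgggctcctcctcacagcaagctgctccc
The absence of these letters from 250 bases says nothing of sites elsewhere.

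Gdf15, a stress-induced factor that circulates and acts through a receptor in the hindbrain, was at 122.1, 102.2 and 55.21 scaled TPM in OVX libraries, against 76.7, 74.65 and 75.86 in sham libraries. As for Inhba, OVX replicates 1 and 2 were above and OVX replicate 3 below all sham libraries, whose SD was 1.03. The log2 fold change was 0.22 ± 0.28 (adjusted p = 0.839), 0.56 ± 0.11 without OVX replicate 3 (adjusted p = 0.171, with 0.171 to 0.988 over all alternatives) and -0.011 without OVX replicate 1. Gdf5, a joint-forming ligand of chondrocytes, was at 4.529, 5.15 and 2.294 in OVX libraries, against 5.756, 5.955 and 6.111 in sham libraries. It was lower in every OVX library (-0.53 ± 0.25, adjusted p = 0.713), and the value without OVX replicate 3 was -0.25.

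Of the secreted antagonists, Fstl1 had the smallest p. Fstl1 encodes a follistatin-like glycoprotein of stromal cells that can bind BMPs. It was at 9.518, 9.394 and 9.306 scaled TPM in OVX libraries, against 14.19, 13.98 and 11.87 in sham libraries (-0.46 ± 0.14, adjusted p = 0.663). The OVX libraries, with an SD of 0.106, were below all sham libraries, and the value without OVX replicate 3 was -0.45, so the difference was as large without that library. Of 12 tested stromal and fibroblast markers, 4 (Col3a1, Cxcl12, Dcn and Pdgfrb) were lower in every OVX library, or 33.3%, against 7.8% of all genes, and 1 (Col6a2) was higher. Their sum, given above and carried mainly by Dcn and Sparc, overlapped between the groups, and their part in the Fstl1 value was not tested. Of Fstl1, 1 of 6 annotated transcripts is listed. Noggin (Nog), which blocks BMPs, was at 2.364, 0.626 and 0.654 in OVX and 1.389, 1.61 and 2.253 in sham, and follistatin (Fst), which blocks activins, at 0.812, 1.978 and 2.187 in OVX and 0.881, 1.006 and 2.393 in sham. Both overlapped. Gremlin (Grem1) was at most 0.559 in any library.

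The receptors were expressed at low levels. The 7 tested type I and type II receptors had means between 1.039 and 8.157 scaled TPM, none separated the groups, and their log2 fold changes lay between -0.081 and 0.29 with a lowest adjusted p of 0.781. Of these 6 were positive on the scaled values but only 2 on the TPM as deposited, so no direction is given. The type I receptors (Acvr1, Tgfbr1, Bmpr1a, Acvrl1 and Acvr1b) summed to 17.85, 14.7 and 24.91 in OVX libraries, against 16.79, 15.56 and 15.97 in sham libraries. The high value in OVX replicate 3 came mainly from Acvr1, an activin and BMP type I receptor, at 7.274, 6.661 and 13.11 in OVX and 6.925, 7.102 and 7.873 in sham. The type II receptors Bmpr2, Tgfbr2 and Acvr2a summed to 6.15, 5.42 and 7.48 in OVX and 6.06, 6.02 and 5.82 in sham.

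Of the co-receptors and the pseudoreceptor, Eng and Bambi were lower in every OVX library. Eng, at chromosome 2, 32646595 to 32682669 on the plus strand, encodes endoglin, a TGF-beta family co-receptor that is abundant on endothelium. It was at 4.218, 3.837 and 1.521 scaled TPM in OVX libraries, against 4.952, 4.919 and 6.777 in sham libraries (-0.70 ± 0.30, adjusted p = 0.706). OVX replicate 3 was far lower than the others, and without it the value was -0.37. The gene's level came from different transcripts in different libraries: ENSMUST00000009705 held 40.4%, 100% and 0% of it in OVX and 56.9%, 40.7% and 100% in sham, and most of the rest was ENSMUST00000167841. The gene Fpgs overlaps Eng on the other strand. Plvap, the only 1 of 13 endothelial markers in the table, was at 18.35, 17.24 and 11.01 in OVX libraries, against 23.04, 21.94 and 33.26 in sham libraries. It was thus low and high in the same libraries as Eng, but so were Id3, Bambi and the chondrocyte marker Chad. The part of endothelial cells in the Eng result was not tested, and in bulk RNA fewer cells of a type and less RNA per cell cannot be told apart.

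The window upstream of Eng is printed as an example of the genes whose level separated the groups in the direction opposite to Tgfb2. It is chr2:32646345-32646594, plus strand, GRCm38.p6, from RefSeq, with CAGAC or GTCTG in capitals.
Eng: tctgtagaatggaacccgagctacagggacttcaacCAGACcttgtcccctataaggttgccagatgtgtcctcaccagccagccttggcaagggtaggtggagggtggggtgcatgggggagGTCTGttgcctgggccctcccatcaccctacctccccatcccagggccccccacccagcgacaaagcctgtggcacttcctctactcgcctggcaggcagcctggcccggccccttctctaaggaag
It held 2 matches, as did the windows of Tgfb2 and Id3. Of the other genes lower in every OVX library, Fstl1, Inhbb, Smad6 and Ltbp4 had no match in any window. No window was found for Gdf5 or Bambi. The matches were thus not shared by the lower genes.

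Bambi, which encodes a receptor-like protein without a kinase that dampens TGF-beta and BMP signals, was at 2.986, 2.674 and 1.652 scaled TPM in OVX libraries, against 3.103, 2.988 and 4.524 in sham libraries. OVX replicate 1 lay just under sham replicate 2, so the groups only just separated (-0.41 ± 0.23, adjusted p = 0.734). On the TPM as deposited they overlapped, with OVX replicate 1 at 2.98 and sham replicate 2 at 2.97. The value was -0.23 without OVX replicate 3 and -0.25 without sham replicate 3. Betaglycan (Tgfbr3) was at 1.944, 2.058 and 1.533 in OVX and 2.414, 1.569 and 1.85 in sham, which overlapped.

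Among the SMADs, 5 of 7 tested had negative and 2 positive log2 fold changes on the scaled values, and on the TPM as deposited 6 were negative. Smad1, a BMP-activated SMAD and the most abundant, was at 10.75, 8.44 and 9.069 scaled TPM in OVX libraries, against 11.75, 10.43 and 12.62 in sham libraries, with OVX replicate 1 inside the sham range (-0.28 ± 0.16, adjusted p = 0.734). Smad5 was at 7.184, 7.307 and 7.488 in OVX and 7.931, 6.478 and 7.47 in sham. Smad2, activated by TGF-beta and activin receptors, was at 11.33, 8.788 and 4.516 in OVX and 11.45, 10.21 and 10.83 in sham, so that its fold change of -0.44 shrank to -0.11 without OVX replicate 3. Smad3 was at most 2.406 and Smad4, the common partner, between 8.546 and 10.87 in all libraries.

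The inhibitory SMADs are themselves induced by the pathway and bind its receptors. Smad6 was at 2.445, 2.396 and 2.46 scaled TPM in OVX libraries, against 3.429, 2.575 and 3.349 in sham libraries. The OVX libraries were nearly equal and below all sham libraries, by little in the case of sham replicate 2 (-0.26 ± 0.17, adjusted p = 0.755). Smad7 was at 4.338, 4.424 and 6.097 in OVX and 3.573, 3.782 and 4.664 in sham, which overlapped (0.24 ± 0.19, and 0.11 without OVX replicate 3). The ratio of Smad6 to Smad7 within a library was 0.564, 0.542 and 0.404 in OVX and 0.96, 0.681 and 0.718 in sham, without overlap, again for a pair chosen after the values were seen. Of the SMURF ubiquitin ligases, which mark receptors and SMADs for degradation, Smurf2 was at 5.661 to 7.179 in OVX and 5.593 to 7.069 in sham. Smurf1 was at 2.184, 1.471 and 0 in OVX and 3.046, 1.066 and 3.367 in sham, and its fold change of -0.74 ± 0.48 was -0.24 without OVX replicate 3, in which it is listed at 0.

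The Id genes encode helix-loop-helix proteins without a DNA binding domain that hold back differentiation, and Id3 had the smallest p of all 41 genes. Id3, at chromosome 4, 136143497 to 136145755 on the plus strand, was at 151.2, 147.4 and 96.08 scaled TPM in OVX libraries, against 213.6, 204.8 and 215 in sham libraries. Every OVX library was below every sham library, and OVX replicate 3 was the lowest (log2 fold change -0.71 ± 0.19; unadjusted p = 0.00789, adjusted p = 0.568, limma). Without OVX replicate 3 the value was -0.50 ± 0.082 (unadjusted p = 0.000523, adjusted p = 0.114, limma), and over all alternatives tried the adjusted p of Id3 lay between 0.0964 and 0.976.

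Id1 and Id2 did not share that pattern. Id2 was at 204.7, 223.2 and 211.9 scaled TPM in OVX libraries, against 196.5, 215.2 and 199.9 in sham libraries (0.065 ± 0.12, and -0.097 on the TPM as deposited). Id1 was at 115.7, 112.1 and 67.45 in OVX libraries, against 94.91, 127.3 and 115.6 in sham libraries (-0.22 ± 0.24, and 0.026 without OVX replicate 3). The ratio of Id3 to Id2 within a library was 0.739, 0.661 and 0.453 in OVX and 1.09, 0.951 and 1.08 in sham, and that of Id3 to Id1 was 1.31, 1.31 and 1.42 in OVX and 2.25, 1.61 and 1.86 in sham. Neither ratio overlapped between the groups, and neither depends on the scaling, but the pairs were chosen after the values were seen and the ratios were not tested.

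The transcripts of Id3 gave the same picture with a small exception. The coding transcript ENSMUST00000008016 was at 146.136, 142.974 and 95.405 scaled TPM in OVX libraries, against 211.924, 203.696 and 213.58 in sham libraries. The retained-intron transcript ENSMUST00000151001 was at 5.09, 4.474 and 0.677 in OVX libraries, against 1.724, 1.056 and 1.394 in sham libraries, so that OVX replicates 1 and 2 had more of it and OVX replicate 3 less than any sham library. Id4 averaged 0.802 in OVX and 0.767 in sham and was not tested.

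**Figure D4:**
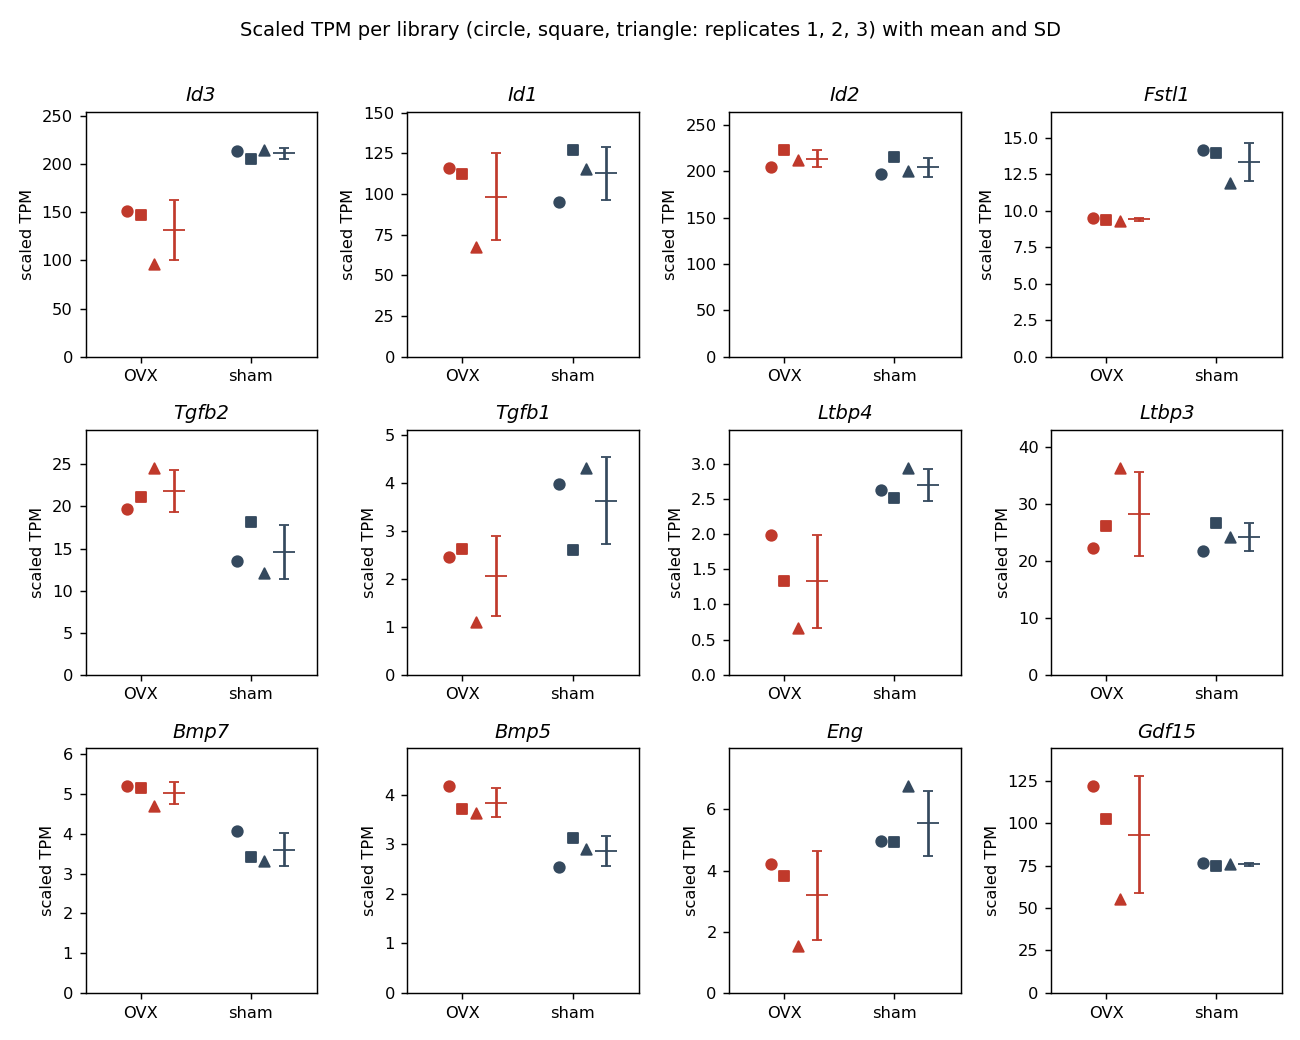
Scaled TPM in each library of 12 pathway genes, OVX left and sham right, with group mean and SD (n = 3 each) beside the points. Id3, Fstl1, Ltbp4 and Eng are lower and Tgfb2, Bmp7 and Bmp5 higher in every OVX library on this scale, none of them past the adjusted threshold, and for Gdf15 OVX replicate 3 (triangle) lies on the other side of the sham libraries than OVX replicates 1 and 2.

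Of the genes matched by symbol alone, Tgfbi, a secreted matrix protein named for its induction by TGF-beta, was at 77.19, 71.07 and 75.07 scaled TPM in OVX libraries, against 88.1, 75.23 and 81.67 in sham libraries. OVX replicate 1 lay above sham replicate 2, so the groups overlapped (-0.13 ± 0.13, adjusted p = 0.812). Bmp2k, a BMP-inducible kinase, was at 1.763 to 2.924 in OVX and 1.631 to 2.143 in sham. Tgfb1i1, a focal adhesion protein, was at 0.333 to 2.326 in OVX and 1.283 to 3.244 in sham.

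Other genes of the pathway outside these symbols were read from 4 lists, and limma called none of the 84 tested in any of them. Of 15 tested genes for ligand maturation and activation, 1 was above and 3 were below in all OVX libraries (26.7% in all, against 15.2% of all genes), and 2 had an unadjusted p under 0.05 (6.88% of all genes). They were Itgb3, an integrin subunit that can take part in activating latent TGF-beta, at 3.386, 3.688 and 3.72 in OVX libraries, against 4.942, 5.875 and 5.716 in sham libraries (-0.50 ± 0.15, adjusted p = 0.663), and Mmp14, a membrane protease, at 26.6, 25.57 and 23.56 in OVX libraries, against 33.24, 31.96 and 41.07 in sham libraries (-0.47 ± 0.15, adjusted p = 0.673). These did not overlap between the groups. Thrombospondin 1 (Thbs1), which can also activate latent TGF-beta, was at 47.04, 43.14 and 92.18 in OVX libraries, against 39.21, 39.49 and 37.02 in sham libraries. The groups did not overlap, with OVX replicate 3 far above the rest (0.56 ± 0.28, adjusted p = 0.715, limma). Leaving out a library, the log2 fold change ran between 0.22 and 0.76. Htra1, a secreted protease that dampens TGF-beta family signals, was at 122.2 to 177.8 in OVX and 181.7 to 197.1 in sham.

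Of 12 further extracellular modulators, none was above and 1, Dcn, was below in all OVX libraries (8.33%, against 15.2% of all genes), and 9 had negative fold changes. Decorin (Dcn), a proteoglycan that binds TGF-beta and a stromal marker as well, was at 13600, 13040 and 9508 scaled TPM in OVX libraries, against 13880, 14710 and 14190 in sham libraries (-0.26 ± 0.18, adjusted p = 0.773), and the value was -0.099 without OVX replicate 3. Biglycan (Bgn) was at 114.2 to 198.6 in OVX and 177.3 to 184.9 in sham, and the BMP-binding Crim1 at 2.406 to 3.607 in OVX and 3.486 to 4.698 in sham. Of 32 intracellular partners and brakes, 2 were above and 2 below in all OVX libraries (12.5%, against 15.2% of all genes), and none had an unadjusted p under 0.05. Fkbp1a, which caps type I receptors, was at 307 to 358.2 in OVX and 343.8 to 357.2 in sham, and Pmepa1, a TGF-beta-induced brake, at 64.05 to 101.8 in OVX and 68.13 to 100.9 in sham. The SMAD phosphatase Ppm1a had a fold change of 0.35 ± 0.20, and the SMAD anchor Zfyve16 one of 0.35 ± 0.20, and without OVX replicate 3 these were 0.19 for either gene.

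Of 25 tested transcriptional targets of TGF-beta and BMP, 2 were above and 3 below in all OVX libraries (7.42% and 7.8% of all genes), 1 had an unadjusted p under 0.05 in the higher and 4 in the lower direction (3.46% and 3.42% of all genes), and the median log2 fold change was -0.073. Hey1, a BMP and Notch target, was at 1.493, 1.253 and 0.761 scaled TPM in OVX libraries, against 2.375, 2.304 and 1.894 in sham libraries, without overlap (-0.57 ± 0.20, adjusted p = 0.677). Col3a1, a fibrillar collagen of stroma, was at 16.65, 11.75 and 10.46 in OVX libraries, against 17.18, 19.62 and 18.69 in sham libraries, without overlap (-0.51 ± 0.19, adjusted p = 0.693). Ccn2 (CTGF), a classical TGF-beta target, was at 909.9, 870.5 and 599.4 in OVX libraries, against 585, 598.8 and 779.7 in sham libraries, which overlapped. Timp1, an abundant protease inhibitor, was at 4420, 4024 and 2453 in OVX and 4402, 4409 and 4110 in sham. The other targets that separated the groups or had an unadjusted p under 0.05 were named after their values were seen. Of those above all sham libraries, Ccn1, a matricellular protein, was at 113.8, 113.3 and 90.94 in OVX libraries, against 81.8, 76.98 and 87.31 in sham libraries (0.36 ± 0.15, adjusted p = 0.706). Runx2, the osteoblast transcription factor, was at 1.423, 1.451 and 2.163 in OVX libraries, against 0.920, 0.674 and 1.201 in sham libraries (0.47 ± 0.20, adjusted p = 0.706). Runx1, a transcription factor of blood cells, was below all sham libraries at 9.738, 10.73 and 11.48 in OVX libraries, against 12.53, 13.7 and 13.03 in sham libraries (-0.28 ± 0.14, adjusted p = 0.715). Klf10, a TGF-beta-inducible transcription factor, had a fold change of -0.58 ± 0.23 and the contractile protein gene Tagln one of -0.69 ± 0.27, with adjusted p of 0.696 and 0.693 in limma, and the groups overlapped in both.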

How the data were processed

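TGF-beta and BMP signalling genes were analysed in 3 OVX and 3 sham bulk RNA libraries, grouped by sample title. The authors deposited TPM per transcript and library. The submitters' processing notes name HISAT2 2.0.5 and featureCounts 1.5.0-p3, and the study's methods name fastp and mm10. The step from these to TPM per transcript was not given in the sources used here, and TPM keep no counts or depth. Deposited columns with the authors' own mean, fold change and p-values were not used.

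TPM were summed over a gene's listed transcripts and scaled by an unweighted trimmed mean of M values (30% of M and 5% of A trimmed on either side), with factors of 0.9981, 1.006 and 0.8414 for OVX and 1.044, 0.9941 and 1.141 for sham replicates 1, 2 and 3. The 8184 genes whose mean scaled TPM was 1 or more were tested. The test was limma 3.58.1 (R 4.3.3) with an empirical Bayes trend and no covariate, applied to log2 values after adding a pseudocount of 1, and p-values were adjusted over all genes by Benjamini-Hochberg. The fit was tested on simulated data in which no library stood apart as OVX replicate 3 does. With 3 libraries per group no exact permutation p can be under 0.1, so none was computed. Genes named have a mean of at least 10 scaled TPM, are among the 8 smallest p, do not overlap between groups (up to 10 per direction), or are the 2 of smallest p and 2 most abundant of each other list. Other genes of the set are given to account for every member. The genes, lists and tests were chosen with earlier results of these data known. Alternatives were other scalings, level minimums and pseudocounts, no trend, a replicate block, library weights and leaving out each library. Coordinates are from GENCODE M21 (GRCm38), promoter windows from RefSeq (GRCm38.p6).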

Additional observations from a re-analysis of the deposited data

How the results depend on the processing

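No TGF-beta or BMP signalling gene was called under any alternative. Over all genes, 1 was called higher and 0 lower by limma (283 and 280 at an unadjusted p under 0.05, or 127 and 496 on the TPM as deposited). The count called higher was 0 with a pseudocount of 0.1 and 20 with library weights, which also called 7 lower. Leaving out a library gave 0 to 7 called higher and 0 to 3 lower. Of pathway genes without overlap, 1 was higher on the TPM as deposited, and 1 was higher and 2 were lower with a minimum mean of 5 scaled TPM (16.7% of those tested, against 15.9% of all genes). Leaving out a library gave 3 to 6 higher and 7 to 13 lower, or 24.4% to 41.5%, against 21% to 28.6% of all genes. With the replicate number as a block, 0 of all genes were called higher and 0 pathway genes were called, and deviations of same-numbered samples correlated at -0.056, -0.127 and -0.251, so the numbers were not taken to pair samples.

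Directions held under all alternatives for 24 of 41 pathway genes. On the TPM as deposited, where the median of all genes was -0.15, the log2 fold change turned to -0.097 for Id2, -0.052 for Bmp2, -0.100 for Inhba and -0.16 for Pmepa1. With library weights it turned to -0.039 for Bmp2, 0.023 for Id1, 0.016 for Bgn and 0.014 for Fkbp1a. Leaving out a library, it ran between -0.0061 and 0.34 for Ltbp3, -0.084 and 0.24 for Bmp2, -0.011 and 0.56 for Gdf15, -0.064 and 0.30 for Inhba, -0.36 and 0.026 for Id1, -0.31 and 0.084 for Bgn, -0.085 and 0.021 for Fkbp1a, and -0.14 and 0.19 for Pmepa1. The cause of these turns was not tested. Library weights gave OVX replicate 3 a weight of 0.172, against 0.907 to 2.68 for the other libraries. Genes near 1 scaled TPM and genes with few listed transcripts are the least certain.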
